A study of Mus musculus with 4 samples.

Results

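Cpeb4 immunoprecipitates (IP) from fetal mouse erythroblasts were compared with the total RNA of such cells, so that each transcript's share of the precipitate could be set against its share of the starting RNA. The 2 arrays titled as Cpeb4 immunoprecipitation, biological replicates 1 and 2, and the 1 array titled as total input were taken by their sample titles, 3 of the 4 arrays of the series. All groups share 1 source, Ter119+ cells taken with anti-Ter119 magnetic beads from livers of E14.5 mouse embryos, in mid-gestation; Ter119 is a surface marker of the red cell lineage. No genotype, strain or drug is named, and the input is labelled as having no antibody. The IP used an anti-Cpeb4 antibody, and the fourth array holds RNA precipitated with rabbit IgG, given here only as a value beside others. The labels do not say how many embryos were pooled, or if input and IP were prepared together.

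Cpeb4 belongs to the cytoplasmic polyadenylation element binding proteins, which bind uridine-rich elements in the 3′ untranslated regions of mRNAs and can hold translation back or promote it, in part through the length of the poly(A) tail. In RNA immunoprecipitation the protein is pulled from a cell lysate with an antibody and the RNA that comes down with it is measured. Fetal liver at this stage is the main site of red cell formation, and erythroblasts there divide a few more times, fill with hemoglobin and lose their nucleus. The comparison bears on which mRNAs came down with Cpeb4 in these cells. A transcript's share of the precipitate can also depend on RNA that sticks without the antibody's target, which the input does not measure.

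Values are log2 expression levels of 25206 probe sets, each standing for 1 gene, of which 23185 had a gene symbol. Differences are IP minus input on the log2 scale, so 1 is a doubling. Tests covered 13911 named genes with a mean log2 level of 3.844 or more, the 40th percentile of those with a symbol. Genes are said to have risen or fallen where limma, a linear model with the spread shared across genes, gave a Benjamini-Hochberg adjusted p below 0.05; errors are standard errors (SE) from that fit, with 2 IP arrays and 1 input array. The input array was assumed to vary like the IP arrays, so no difference has a replicate check on its side, and the number of arrays limits the precision: the SE ran from 0.042 to 0.865 with a median of 0.167. The erythroid label was borne by its markers: 7 of 10 listed genes were measured, their input levels ran from 10.04 to 12.20, and none lay below the array's median on any array. The summed linear signal of these 7 markers was 16613 in input, 13588 and 13832 in IP replicates 1 and 2, and 12470.1 in IgG.

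Relative to input, the precipitate was richer in mRNAs of platelets, granulocytes and adhesion receptors, and poorer in histone, DNA replication, mitotic and mitochondrial mRNAs and in small nucleolar RNAs. Rises passed the limma test in 1680 genes (12.1% of those tested) and falls in 2669 (19.2%). A change of at least 2-fold in each replicate was seen upward in 562 genes (4.04%) and downward in 721 (5.18%), and all 1283 of these also passed the limma test. Among all 23185 named genes, tested or not, 577 were at least 2-fold higher (2.49%) and 759 at least 2-fold lower (3.27%). Changes of at least 4-fold in both replicates were more often rises, with 102 genes higher and 42 lower, and at 8-fold the counts were 18 and 7. Some of the largest rises, named below, started from input levels below that array's median, which may not be above background. The balance of rises and falls depended on scaling: 38.6% of the limma calls were rises with the deposited values and 49.6% after the arrays were quantile normalised again, when 1709 genes rose and 1738 fell.

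The 2 IP replicates lay close together. Their difference had an SD of 0.216 over the tested genes, and 52 genes differed at least 2-fold between them. Both replicates were above input for 4610 genes and below it for 5384, and the median difference was 0 in each. Near the 2-fold line, Kit lay just inside with differences of 1.0037 and 1.0919 in replicates 1 and 2, and Ms4a3 just outside with 1.1336 and 0.9997. On the other side, Slc38a9 lay just inside with -1.001 and -1.0705 and Wdr62 just outside with -0.9975 and -1.0844. Such neighbours differ by far less than the spread between the replicates.

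**Figure D1:**
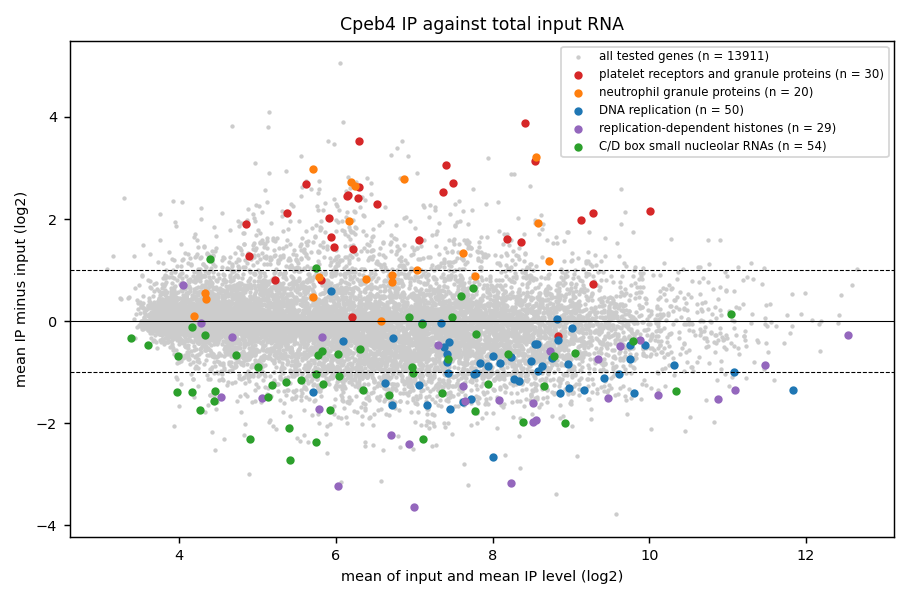
Mean IP minus input (log2, vertical axis) against the mean of the input and IP levels (log2, horizontal axis), with 1 point per tested gene and dashed lines at 2-fold. Platelet and neutrophil genes lie mostly above 0, while DNA replication genes, histones and C/D box small nucleolar RNAs lie mostly below it.

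Gpnmb, a transmembrane glycoprotein of macrophages and melanocytes, showed the largest difference. Its level was 3.52 in input, 8.54 and 8.60 in IP replicates 1 and 2 and 6.90 in IgG, a difference of 5.05. Both IP arrays were far above input, and the IgG array lay between input and IP. Kctd12, an auxiliary subunit of GABA-B receptors, went from 3.10 in input to 7.09 and 7.29 in the IP, with 3.78 in IgG. Rbpms2, an RNA-binding protein, went from 4.15 to 7.97 and 8.11, with 5.76 in IgG. In both genes the replicates lay close together and far from input, and IgG was nearer to input than to the IP. For Gpnmb, Kctd12, Rbpms2, Cd226, AI504432, Lgalsl, Adgre1, Afp, Angpt1 and Mir680-1 the input level lay below the input array's median of 4.17, and for Gpnmb, Kctd12, Cd226, Lgalsl, Adgre1 and Angpt1 also below the 3.844 of the filter. The last 6 were tested only because of their levels on the precipitate arrays, so their calls had to favour a rise. Whether such input levels are above background is not known, so no fold or error is given for these 10 genes.

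Several of the other leading genes encode receptors and channels of blood cells. Cd226, an adhesion receptor of lymphocytes and platelets, read 2.76 in input and 6.83 and 6.34 in the IP, with 4.10 in IgG. Kcna3, a voltage-gated potassium channel, read 5.08 in input, 8.47 and 8.73 in the IP and 6.64 in IgG, and rose by 3.52 ± 0.14. Itga6, an integrin subunit that pairs into a laminin receptor, read 5.08 in input, 8.35 and 8.60 in the IP and 4.98 in IgG, a rise of 3.39 ± 0.14 (10.5-fold). For Itga6 the IgG level was close to input, whereas for Cd226 and Kcna3 it lay above input. Timp3, an inhibitor of metalloproteinases, rose by 3.25 ± 0.11 from 5.07 to 8.31 and 8.33, with 5.40 in IgG. AI504432, an expressed sequence, read 4.13 in input, 7.65 and 7.69 in the IP and 3.96 in IgG. Lgalsl, a galectin-like gene, read 3.23 in input, 6.81 and 7.24 in the IP and 5.55 in IgG.

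**Figure D2:**
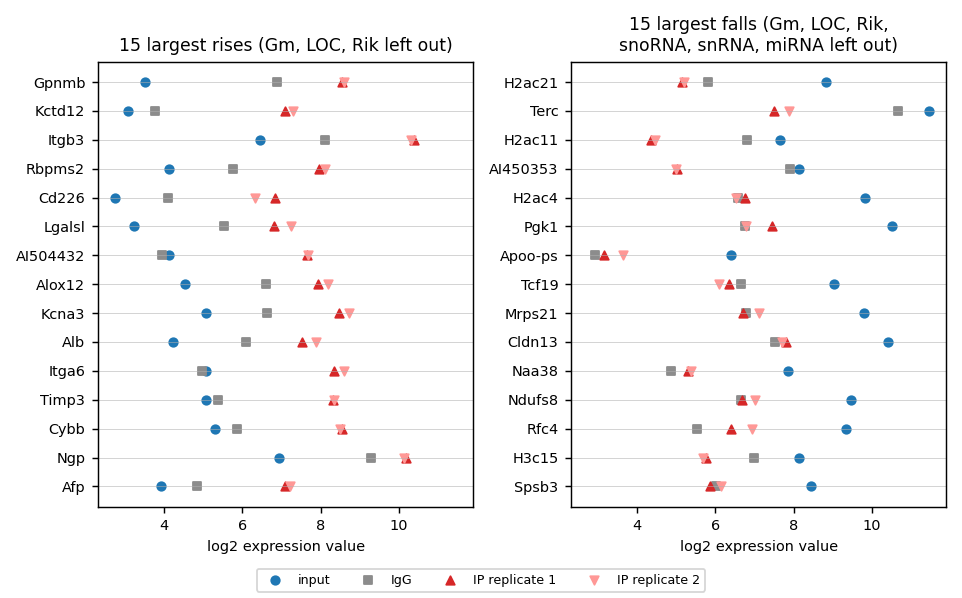
Log2 expression value (horizontal axis) of the 15 genes that rose most and the 15 that fell most, ranked by the smaller of the replicates' differences, in input (circles), IgG (squares) and IP replicates 1 and 2 (triangles); symbols of predicted genes, and among falls those of small nucleolar, nuclear and micro RNAs, were left out. Both IP replicates lie far from input on the same side in every gene shown, while the IgG array lies in places near input (Itga6, AI450353) and in places near the IP (H2ac4, Mrps21).

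Genes of platelets and of megakaryocytes, the cells that shed them, formed the list with the largest rises. Of 30 tested platelet receptor and granule genes, 28 rose, 1 fell and 1 did not pass, and in 24 each replicate was at least 2-fold above input. The list's median difference was 2.08 in replicate 1 and 2.15 in replicate 2, beside 0 over all tested genes. Itgb3, the beta chain of the platelet fibrinogen receptor, led it: 6.47 in input, 10.39 and 10.31 in the IP and 8.10 in IgG, a rise of 3.88 ± 0.08 (14.7-fold, limma adjusted p = 0.000129). Alox12, the platelet lipoxygenase, read 4.53 in input, 7.95 and 8.19 in the IP and 6.60 in IgG, a rise of 3.53 ± 0.15. In both genes the IgG array stood about midway between input and IP.

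The megakaryocyte markers behaved alike, with 1 exception. Ppbp, a platelet chemokine, rose by 3.14 ± 0.09 from 6.97 to 10.05 and 10.17, with 8.96 in IgG. Vwf, the von Willebrand factor that tethers platelets to vessel walls, rose by 3.05 ± 0.10 from 5.88 to 8.90 and 8.95, with 6.09 in IgG. Pf4, the platelet factor that binds heparin, rose by 2.70 ± 0.09 from 6.14 to 8.83 and 8.85, with 8.53 in IgG. The IgG array thus held nearly the IP level of Pf4 and nearly the input level of Vwf. Itga2b, the partner chain of Itgb3, rose 3.06-fold and Gp9, a subunit of the receptor for von Willebrand factor, 1.66-fold. Gp1bb, another subunit of that receptor, was 6.17 in input and 6.18 and 6.31 in the IP and did not pass (limma adjusted p = 0.853). Fermt3, the kindlin that activates integrins, fell by 0.30 ± 0.08 (limma adjusted p = 0.0429), a call that was lost under quantile normalization, without the filter, with the spread modelled without a trend and with tied values kept at a spread of 0.

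Integrins and leukocyte adhesion genes overlapped with these and moved the same way. Of 23 tested, 17 rose and none fell, with 9 at least 2-fold higher and medians of 0.85 and 0.75 in the replicates. Itgb3 and Itga6 were the highest members. Cd44, a hyaluronan receptor, and Itgb7, an integrin of gut-homing lymphocytes, each had 1 value in input and both IP arrays. Equal values on several arrays are frequent in this table, and 21.8% of tested genes had equal values in both IP arrays.

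Neutrophil granule genes also stood higher in the precipitate. Of 20 tested, 15 rose and none fell, 9 were at least 2-fold higher, and the median difference was 0.95 in each replicate. Over all 26 measured genes the medians were 0.87 and 0.84. Ngp, the neutrophilic granule protein, read 6.95 in input, 10.18 and 10.14 in the IP and 9.28 in IgG, a rise of 3.21 ± 0.08 (9.25-fold). Camp, the cathelicidin peptide precursor, read 4.22 in input, 7.14 and 7.25 in the IP and 3.38 in IgG, a rise of 2.97 ± 0.15. The IgG array was near the IP for Ngp and below input for Camp. S100a9, a calcium-binding protein of inflammation, rose by 2.73 ± 0.13 and its partner S100a8 by 1.00 ± 0.12; the IgG levels were 7.64 and 7.27, against 7.53 in each gene's first IP array. Elane, neutrophil elastase, was 6.58 in input and in both IP arrays.

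Phagocyte genes were mixed. Of 25 tested genes of the phagocyte NADPH oxidase and of macrophages, 12 rose, 5 fell and 7 were at least 2-fold higher. Under quantile normalization 2 fell. The filter also used the precipitate arrays, which favoured rises at low input levels. Medians in the replicates were 0.61 and 0.59 over the tested genes, and 0.47 in each over all 31 measured. Cybb, the catalytic subunit of the oxidase that makes superoxide, rose by 3.23 ± 0.11 from 5.30 to 8.54 and 8.51, with 5.86 in IgG. Adgre1, the F4/80 antigen of macrophages, read 3.70 in input, 6.35 and 6.85 in the IP and 4.41 in IgG. Csf1r, the receptor for the macrophage growth factor, rose 3.57-fold, whereas the complement gene C1qa read 4.57 in input and 4.43 and 4.69 in the IP (limma adjusted p = 1). Lgmn, a lysosomal protease, fell by 0.60 ± 0.09, and Slc40a1, the iron exporter ferroportin, fell by 0.61 ± 0.13 (limma adjusted p = 0.0174), the second of which was lost under quantile normalization and with tied values kept at a spread of 0.

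Some genes of secreted liver proteins rose, from input levels near those of probe sets in general. The median input level of the list's tested genes was 4.24, beside 5.78 over all tested genes and 4.17 over all named probe sets on that array. Of 34 measured genes of proteins secreted by fetal hepatocytes, 19 were bright enough to be tested. Of those, 8 rose, none fell, and the median difference was 0.53 in each replicate. The filter also used the precipitate arrays, so at such input levels it favoured genes that rose. Over all 34 measured genes the median differences were 0.34 and 0.32. Alb, albumin, read 4.24 in input, 7.53 and 7.88 in the IP and 6.11 in IgG, a rise of 3.47 ± 0.18. Afp, alpha-fetoprotein, read 3.93 in input, 7.09 and 7.23 in the IP and 4.86 in IgG. Trf, the iron carrier transferrin, rose 4.52-fold, while Ttr, transthyretin, read 4.19 in input and 4.34 in each IP array and did not pass (limma adjusted p = 0.705). Such bulk samples do not show which cells this RNA came from.

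Genes of stem and progenitor cells rose in 11 of 18 cases and fell in 1, with 7 at least 2-fold higher and medians of 0.70 and 0.84. Angpt1, a ligand of the Tie2 receptor, read 3.83 in input and 5.87 and 5.63 in the IP. Cd34, a surface marker of progenitors, rose by 1.56 ± 0.12 and Kit, the stem cell factor receptor, by 1.05 ± 0.11. Lmo2, a bridging protein of erythroid transcription complexes, fell by 1.10 ± 0.13. Endothelial genes rose in 4 of 18 cases (22.2%, beside 12.1% over all tested genes), led by Pecam1 at 1.75 ± 0.20. Mast cell and basophil genes rose in 4 of 9 with 1 fall, and stellate and stromal genes in 4 of 14. These are counts of tested genes, and the filter also used the precipitate arrays. Over all measured genes the medians in the replicates were 0.04 and 0.12 for 22 endothelial genes. They were 0 and 0.05 for 15 mast cell and basophil genes, and 0.01 in each for 21 stellate and stromal genes. The lymphoid list had 1 rise among 7 tested, Ighm, which was lost under quantile normalization, array centring, no filter and tied values kept at a spread of 0 (limma adjusted p = 0.0484).

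By summed signal, megakaryocyte, neutrophil, macrophage and hepatocyte markers stood higher in IgG than in input as well, though by less than in the IP. The summed linear signal of 8 measured megakaryocyte markers was 1078 in input, 2143 in IgG and 4680.0 and 4912 in IP replicates 1 and 2. For 10 neutrophil markers it was 913 in input, 1950 in IgG and 3031 and 3019 in the IP, for 10 macrophage markers 206 in input, 282 in IgG and 430.4 and 499 in the IP, and for 9 hepatocyte markers 160.3 in input, 288 in IgG and 591 and 680 in the IP. At least 4 of the macrophage markers and 2 of the hepatocyte markers lay below the array's median on each of the IP arrays, and 6 and 4 of them did so on the input array. The same order of sums held for 6 stem and progenitor markers, at 252 in input, 329 in IgG and 512 and 548 in the IP. Their median level, however, was 4.89 in input, 4.57 in IgG and 5.49 and 5.68 in the IP. The order of sums also held for 8 endothelial markers, at 124 in input, 163 in IgG and 236 and 206 in the IP. Their median level was 3.79 in input, 4.01 in IgG and 3.85 and 3.99 in the IP, so the order did not hold for medians. Nor did it for the macrophage median, at 3.92 in input, 4.46 in IgG and 4.36 and 4.43 in the IP. Stellate and stromal markers showed no such order, at 129 in input, 150.4 in IgG and 128 and 135 in the IP. Neither did mast cell markers, at 415 in input, 366 in IgG and 365 and 385 in the IP. Lymphoid markers were highest in IgG, at 87.3 in input, 123 in IgG and 109.8 and 103 in the IP. The IgG and IP differences share the same input array. The part that other cells or nonspecific binding played in these rises was not tested.

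**Figure D3:**
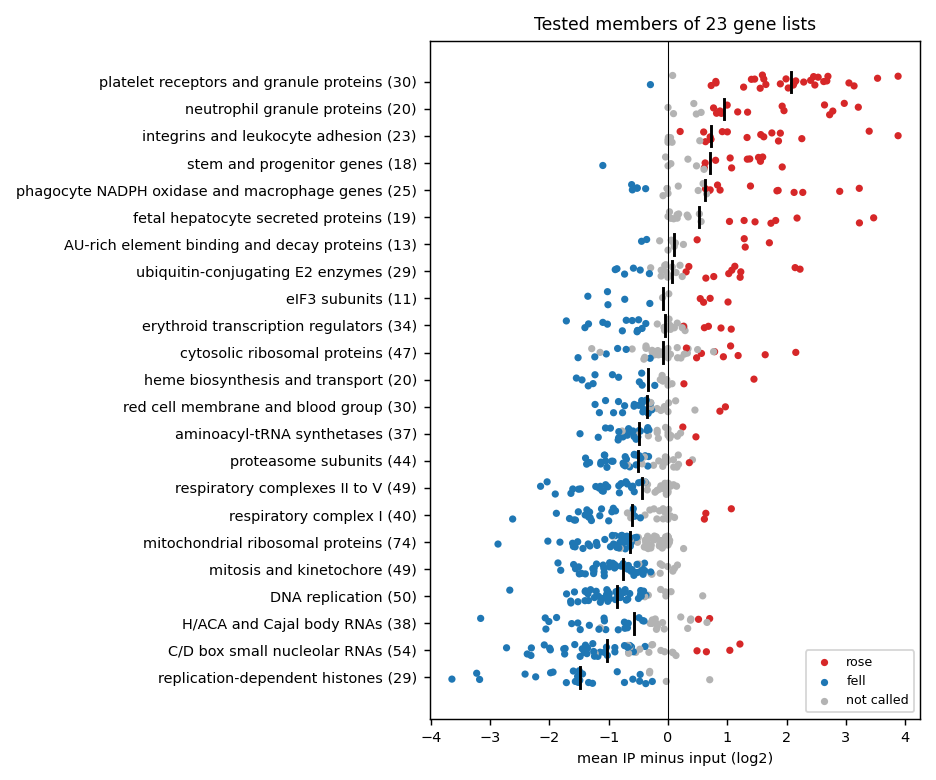
Mean IP minus input (log2, horizontal axis) of the tested members of 23 gene lists, 1 point per gene with its vertical place within the row drawn at random, coloured by the limma call, with the median as a black bar and the number tested in brackets. Platelet genes lie mostly above 1, histones mostly below -1, and eIF3 subunits and cytosolic ribosomal proteins on both sides of 0.

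Cpeb4's own mRNA was enriched, but modestly next to the groups above. Cpeb4 read 10.39 in input, 10.90 and 10.93 in the IP and 10.42 in IgG, a rise of 0.52 ± 0.06 (1.44-fold, limma adjusted p = 0.00171), and both replicates were above both other arrays. Its paralogue Cpeb2 rose by 0.79 ± 0.14, and Cpeb3, with a difference of -0.41 ± 0.18, did not pass (limma adjusted p = 0.163).

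Among proteins that control mRNA stability and translation, the Zfp36 family rose together. These zinc finger proteins bind AU-rich elements and recruit the deadenylase that starts mRNA decay. Zfp36 read 7.33 in input, 9.10 and 8.98 in the IP and 8.20 in IgG, a rise of 1.71 ± 0.09. Zfp36l1 rose by 1.30 ± 0.09, from 7.54 to 8.85 and 8.83, and Zfp36l2 by 1.29 ± 0.11, from 8.79 to 9.97 and 10.19. In all 3 genes each replicate was more than 2-fold above input; Zfp36l2 is named after its values were seen. The other 10 tested genes of AU-rich element binding and decay gave 1 rise and 2 falls, and the falls, of Elavl1 (-0.36 ± 0.08) and Celf1 (-0.45 ± 0.09), were lost under quantile normalization, without a trend in the spread and with tied values kept at a spread of 0.

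Translational repressors gave 6 rises and 3 falls among 19 tested, with 1 fall under quantile normalization or with no filter. Msi2, the Musashi protein of hematopoietic progenitors, rose by 1.49 ± 0.09, from 7.46 to 8.97 and 8.92, with 6.94 in IgG, and Ago1, an Argonaute protein that carries small RNAs, rose by 1.08 ± 0.14. G3bp1, a stress granule protein, fell by 0.62 ± 0.08. For the machinery of the poly(A) tail, 4 of 19 tested polyadenylation genes rose and 6 fell. Papola, the main nuclear poly(A) polymerase, rose by 0.67 ± 0.07, while Papolg, a related polymerase, fell by 1.16 ± 0.13 and Pan2, a deadenylase subunit, by 1.12 ± 0.11. The CCR4-NOT deadenylase gave 4 rises and 5 falls among 16 (5 and 2 under quantile normalization, 4 and 3 with no filter), from Cnot7, a catalytic subunit (0.91 ± 0.14), to Btg3, an adaptor of that enzyme (-1.02 ± 0.19). Pabpc1, the cytoplasmic poly(A)-binding protein and among the brightest genes here, read 12.14 in input, 13.13 and 13.19 in the IP and 12.74 in IgG, a rise of 1.01 ± 0.04.

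Subunits of the initiation factor eIF3, which brings mRNA to the small ribosomal subunit, went both ways. Of 11 tested, 4 rose and 5 fell. Eif3h read 9.93 in input, 10.94 and 10.95 in the IP and 8.76 in IgG, a rise of 1.01 ± 0.06, and Eif3e, Eif3f and Eif3i rose by 0.71 ± 0.11, 0.60 ± 0.07 and 0.54 ± 0.07. Eif3m read 7.97 in input, 6.60 and 6.65 in the IP and 3.66 in IgG, and fell by 1.35 ± 0.12, and Eif3d, Eif3c and Eif3b fell by 1.02 ± 0.08, 1.01 ± 0.08 and 0.73 ± 0.07. Eif3k fell by 0.31 ± 0.07, a call lost under quantile normalization and without a trend in the spread. The replicates had the same sign in each of these 9 genes, and the list's median of -0.09 turned to 0.02 under quantile normalization.

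Other translation factors were balanced too, with 10 rises and 11 falls among 38 tested. Eif5a2, a paralogue of the elongation factor eIF5A, rose by 1.33 ± 0.07, and Eif4ebp2, an inhibitor of cap-dependent initiation, by 1.29 ± 0.07. Eif6, which keeps ribosomal subunits apart, fell by 1.49 ± 0.11 and Eif2b3, a subunit of the exchange factor for eIF2, by 1.51 ± 0.15. Cytosolic ribosomal protein genes gave 9 rises and 6 falls among 47, with Rpl15 the highest (2.15 ± 0.17) and Rpl29 the lowest of those that passed (-1.52 ± 0.10). Ribosomal protein genes have many processed pseudogenes, so their levels are uncertain.

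Replication-dependent histone mRNAs, which end in a stem-loop in place of a poly(A) tail, had the lowest median of all lists. Of 29 tested, 25 fell, none rose and 18 were at least 2-fold lower in both replicates; the median was -1.48 in replicate 1 and -1.39 in replicate 2. H2ac21 read 8.81 in input, 5.15 and 5.19 in the IP and 5.80 in IgG, and fell by 3.64 ± 0.14 (12.5-fold, limma adjusted p = 0.00018). H2ac11 read 7.64 in input, 4.36 and 4.47 in the IP and 6.80 in IgG, and H2ac4 read 9.82, 6.76 and 6.53, with 6.58 in IgG. In these genes both IP arrays lay far below input, and the IgG array was near the IP for H2ac4 and nearer input for H2ac11. H2ac1, a testis histone, read 3.70 in input and 4.14 and 4.66 in the IP and did not pass. Histone genes of 1 class are close copies, so single members may share signal.

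The largest fall of all was of Terc, the RNA template of telomerase. It read 11.46 in input, 7.49 and 7.88 in the IP and 10.66 in IgG, and fell by 3.78 ± 0.16 (13.7-fold). The IP arrays were the low ones and IgG stayed near input. Rpph1, the RNA of ribonuclease P, went the other way, from 7.99 in input to 9.64 in each IP array and 11.83 in IgG. Pgk1, a glycolytic enzyme, read 10.50 in input, 7.46 and 6.78 in the IP and 6.75 in IgG, and fell by 3.38 ± 0.26. Tcf19, a cell cycle-regulated factor, and Cldn13, a claudin gene, fell by 2.80 ± 0.15 and 2.65 ± 0.09.

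DNA replication genes fell almost throughout. Of 50 tested, 43 fell, none rose and 18 were at least 2-fold lower, with medians of -0.91 and -0.84. Rfc4, a subunit of the clamp loader, read 9.34 in input, 6.41 and 6.94 in the IP and 5.52 in IgG, and fell by 2.67 ± 0.22. Pole2, a subunit of the leading-strand polymerase, read 8.32 in input, 6.45 and 6.76 in the IP and 6.34 in IgG. Both genes were low on all precipitate arrays. Ung, a uracil glycosylase, had the highest difference, 0.58 ± 0.22, and did not pass (limma adjusted p = 0.105). The median of IgG minus input for the same 50 genes was -1.46, against the shared input array.

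Mitosis and kinetochore genes gave 39 falls and no rise among 49, with 16 at least 2-fold lower and medians of -0.82 and -0.67. Their median of IgG minus input was -1.24, against the shared input array. Cdc20, the activator of the anaphase-promoting complex, read 9.69 in input, 7.97 and 7.70 in the IP and 8.32 in IgG, and fell by 1.86 ± 0.13, and Ncaph, a condensin subunit, fell by 1.81 ± 0.09. The largest differences upward, for the kinetochore genes Cenpe (0.16 ± 0.09) and Knl1 (0.11 ± 0.08), did not pass. Regulators of G1 were less uniform, with 4 rises and 9 falls among 28. Cdk6, a kinase that drives entry into S phase, read 7.55 in input, 9.62 and 9.45 in the IP and 7.49 in IgG, a rise of 1.99 ± 0.10, while its inhibitor Cdkn2c fell by 1.11 ± 0.11 and the transcription factor E2f2 by 1.02 ± 0.07.

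Nuclear genes for mitochondrial proteins fell often and seldom rose. Among mitochondrial ribosomal proteins 38 of 74 fell and none rose, among respiratory complex I genes 22 of 40 fell and 3 rose, and among complexes II to V 26 of 49 fell and none rose. Mrps21 read 9.78 in input, 6.71 and 7.12 in the IP and 6.78 in IgG, and fell by 2.87 ± 0.18. Ndufs8, an iron-sulfur subunit of complex I, read 9.47 in input, 6.69 and 7.02 in the IP and 6.64 in IgG, and fell by 2.62 ± 0.15, and Atp5d, a subunit of ATP synthase, fell by 2.15 ± 0.08. Ndufaf4, an assembly factor of complex I, rose by 1.07 ± 0.13. Proteasome subunits gave 26 falls and 1 rise among 44, and aminoacyl-tRNA synthetases 21 falls and 2 rises among 37; under quantile normalization these falls numbered 17 and 13. The median of IgG minus input was -1.15 for mitochondrial ribosomal proteins, -1.66 for complex I and -1.32 for the proteasome. The other precipitate thus also held less of them. Tested genes of high level were low there in general, with medians of -0.9012 at levels of 6.37 to 7.68 and -0.9978 at 7.68 to 12.6. Whether these lists differed in IgG from genes of like level was not tested.

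Within the erythroid programme, falls outnumbered rises in the lists of transcription regulators, heme genes and membrane genes, as they did over all tested genes. Of the 7 erythroid marker genes 5 fell, 1 rose and 1 did not pass. Of 34 tested transcription regulators 5 rose (14.7%) and 14 fell (41.2%), beside 12.1% and 19.2% over all tested genes. Median input levels were 8.60 for these regulators, 9.94 for the heme genes and 9.87 for the membrane genes. Falls were frequent at high levels in general, with 1105 falls among the 2782 tested genes of the highest level group. The part of level in these lists was not tested. Klf1, which switches on beta-globin and much of the red cell programme, read 10.12 in input, 8.40 and 8.41 in the IP and 8.22 in IgG, and fell by 1.71 ± 0.08. Gata1, the master factor of the lineage, read 10.04 in input, 8.56 and 8.71 in the IP and 8.77 in IgG, and fell by 1.40 ± 0.09. Myb, a factor of early progenitors, moved the other way, from 7.30 to 8.41 and 8.33, with 8.83 in IgG, a rise of 1.07 ± 0.10. Under quantile normalization 7 rose and 8 fell, and the list's median turned from -0.07 and -0.06 in replicates 1 and 2 to 0.10 for their mean.

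Heme genes gave 11 falls (55.0%) and 2 rises (10.0%) among 20. Urod and Uros, enzymes of the middle of the heme pathway, fell by 1.54 ± 0.09 and 1.45 ± 0.14, and Flvcr1, a heme exporter, rose by 1.45 ± 0.11, from 6.24 to 7.67 and 7.71, with 5.52 in IgG. Alas2, the erythroid enzyme that begins heme synthesis, read 11.56 in input and 11.50 and 11.42 in the IP and did not pass (limma adjusted p = 0.281); it is named here after its values were seen. Red cell membrane and blood group genes fell in 18 of 30 cases and rose in 2, with Epb42, the band 4.2 protein of the membrane skeleton, down by 1.23 ± 0.08 and Xk, a blood group membrane protein, up by 0.97 ± 0.06. Slc4a1, the band 3 anion exchanger, read 12.20 in input and 12.12 and 12.16 in the IP and did not pass (limma adjusted p = 0.457). The median of IgG minus input was -0.40 for the transcription regulators, -0.81 for heme genes and -0.77 for membrane and blood group genes. The other precipitate thus also held less of them, against the same input array, but so it did of tested genes at such levels in general. Over all tested genes of the highest level group (7.68 to 12.6) the median of IgG minus input was -0.9978. Over those of the next group (6.37 to 7.68) it was -0.9012. The medians of these lists were not below those values. Of 22 iron genes, 3 rose (13.6%) and 8 fell (36.4%), and under quantile normalization 4 rose and 4 fell. The extremes were Pcbp2, an RNA-binding protein that also delivers iron (1.14 ± 0.06), and Iscu, the scaffold for iron-sulfur clusters (-1.33 ± 0.12). The 7 tested globin genes ran from -1.60 ± 0.09 for Hbq1b to 2.24 ± 0.14 for the embryonic chain Hbb-y, but globin copies can share probes, so these values are uncertain.

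Many small nucleolar RNA genes fell in the IP, while the IgG array mostly held more of them than input. Small nucleolar RNAs guide chemical changes in ribosomal RNA, with C/D box members guiding methylation and H/ACA members pseudouridylation. Of 54 tested C/D box genes 36 fell and 4 rose, with medians of -1.0008 and -0.963, and of 38 H/ACA and Cajal body genes 21 fell and 2 rose, with medians of -0.53 in each replicate; under quantile normalization 13 of these 38 fell. Snora73a read 7.64 in input, 4.32 and 4.65 in the IP and 7.64 in IgG, and fell by 3.16 ± 0.20, and Snord45b read 6.78, 3.99 and 4.11, with 7.10 in IgG, and fell by 2.72 ± 0.18. Both were as high in IgG as in input or nearly so, and low only on the IP arrays. Over the same lists, IgG minus input had medians of 1.97 and 2.00, against the same input array, so the IgG array lay on the other side of input.

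Many of these genes lie within the introns of a host gene, from whose transcript the small RNA is cut. For 65 small nucleolar or Cajal body RNA genes with a tested host, by RefSeq's gene spans without use of strand, the small RNA's difference lay below the host's in both replicates in 52. Their median difference was -0.68 for the small RNAs and 0.03 for the hosts; 37 small RNAs fell and 4 rose, while 9 hosts in these pairs fell and 11 rose. Snora73a and Snora73b, with -3.16 and -2.07, lie in Snhg3 (-0.37, not called), and Snord45b in Rabggtb (0.06, not called). Pairs that share a host are not independent, with 50 hosts among the 65 pairs. For 76 miRNA genes with a tested host, the miRNA lay below the host in both replicates in 40, with medians of -0.14 and 0.01. Probe sets were not checked for shared sequence between small RNA and host.

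**Figure D4:**
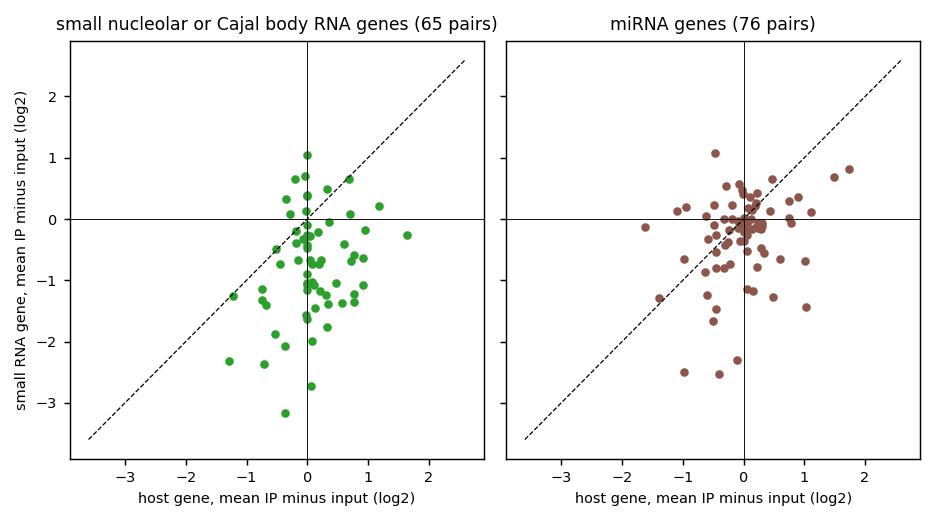
Mean IP minus input (log2) of small RNA genes (vertical axis) against that of their host genes (horizontal axis), 1 point per pair, with the line of equal difference dashed; small nucleolar and Cajal body RNA genes are on the left and miRNA genes on the right. Most points of the left panel lie below the dashed line, 52 of 65 in both replicates, and the points of the right panel lie about it.

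MicroRNAs are short RNAs whose seed, bases 2 to 8, pairs with target mRNAs. Of 139 tested miRNA genes 27 fell (19.4%) and 8 rose (5.76%), beside 19.2% and 12.1% over all tested genes. By the limma test falls were thus about as frequent among them as in general. By the 2-fold rule 16 of the 139 were lower and 3 higher, beside 5.18% and 4.04% over all tested genes. Their median input level was 4.94, and 148 of 2782 tested genes fell in the group with levels of 4.30 to 5.17. With no filter 45 of 529 miRNA genes fell. Mature sequences are shown for some of the miRNA genes with a known place in blood cells that fell. That of miR-680, whose gene Mir680-1 rose, is shown as well. Other miRNA genes of blood cells did not pass, such as Mir486 (0.01 and -0.19 in the replicates) and Mir155 (0.14). The sequences are from RefSeq (GRCm38.p6), with the seed in capitals, and 119 of the 139 genes had one there. Whether the probe sets measure the primary transcript, the hairpin or the mature RNA is not given. Mir144 and Mir680-1 were named by rule, and the others were chosen after their values were seen.
mmu-miR-144-3p: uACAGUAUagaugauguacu
mmu-miR-451a: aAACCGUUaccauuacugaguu
mmu-miR-15a-5p: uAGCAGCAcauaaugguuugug
mmu-miR-16-5p: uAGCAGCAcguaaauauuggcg
mmu-miR-142a-3p: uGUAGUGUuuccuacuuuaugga
mmu-miR-680: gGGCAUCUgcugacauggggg

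Mir144 and Mir451a, which are made from 1 transcript and are abundant in erythroblasts, fell together although their seeds above differ. Mir144 read 7.18 in input, 4.57 and 4.63 in the IP and 5.06 in IgG, and fell by 2.58 ± 0.17 (limma adjusted p = 0.000409). Mir451a read 8.24 in input, 6.29 and 6.18 in the IP and 7.06 in IgG, and fell by 2.00 ± 0.13. All precipitate arrays were below input in both. Mir15a and Mir16-1, which share the seed printed for them and the host transcript Dleu2, fell by 2.50 ± 0.31 and 0.65 ± 0.17, and Dleu2 itself fell by 0.98 ± 0.14. Mir142, a miRNA of blood cells, read 7.69 in input, 5.56 and 4.97 in the IP and 8.39 in IgG. IgG was thus above input for Mir142, and also for Mir15a (by 0.79) and Mir16-1 (by 0.68). The median of IgG minus input over the tested miRNA genes was 0.85, so Mir144 and Mir451a differed from most in this. Mir680-1 read 3.90 in input and 6.38 and 5.59 in the IP, and its IgG level was higher still, at 9.03.

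The size of the gene's locus, which the choice of arrays did not use, moved with the direction of change. Protein-coding genes were split into groups of 2535 by RefSeq's genomic span, introns included. At least 2-fold rises numbered 67, 84, 106, 120 and 167 from the group of shortest spans to that of the longest, and at least 2-fold falls 175, 165, 118, 103 and 68. In limma calls, rises numbered 190, 249, 317, 372 and 476 from the shortest group (0.304 to 7.06 kb) to the longest (62.0 to 2241 kb). Falls numbered 497, 563, 560, 508 and 331, so they were not highest in the shortest group. The median level of the groups also differed, from 5.15 in the shortest to 6.40 in the next to longest and 6.02 in the longest. Falls were also more frequent at higher levels: in equal groups of all tested genes from the lowest level to the highest, 30, 148, 474, 912 and 1105 genes fell and 107, 209, 368, 420 and 576 rose. The part of level in the relation with span was not tested, and no lengths of mature transcripts or untranslated regions were used here.

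**Figure D5:**
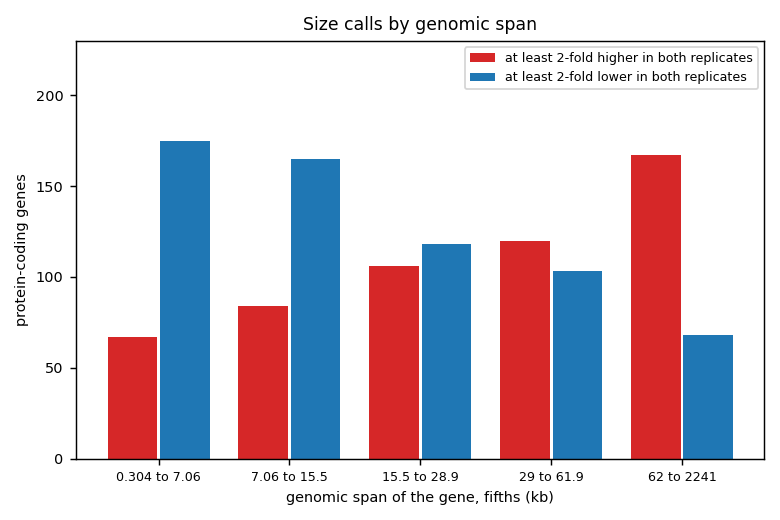
Number of protein-coding genes (vertical axis) at least 2-fold higher or at least 2-fold lower than input in both IP replicates, by group of genomic span in kb (horizontal axis), 2535 tested genes per group. Higher genes increase from 67 to 167 and lower genes decrease from 175 to 68 from the shortest to the longest group.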

How the data were processed

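The authors deposited log2 expression values for each array, made with RMA and affy per the submitters' processing notes, which give no version; labelled cRNA was biotinylated per the labels' protocols. Exactly equal values on several arrays occur, and 3032 tested genes had equal values (within 1e-09) in both IP arrays. Symbols and gene spans came from RefSeq (GRCm38.p6); the files name no build, so no coordinates are given.

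Differences were fitted with limma 3.58.1 in R 4.3.3 (eBayes with trend) on 2 IP arrays and 1 input array. Genes with equal IP values were given no residual degree of freedom and took the prior spread (SD 0.035 to 0.156, with 4.683 prior degrees of freedom). The fit was first tested on simulated data with such ties. The p-values measure only the spread between the IP arrays, which the labels call biological replicates.

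The comparison, gene lists and markers were chosen with earlier results of these data known, so lists are described by counts and medians. List counts stand beside 12.1% rises and 19.2% falls over all tested genes, and both were more frequent at higher levels. Genes named were the 15 largest rises and falls by the smaller replicate difference (also with predicted genes and, for falls, small RNAs left out), the CPEB family, cell type markers, from each list the 2 members highest and 2 lowest by mean difference, and members of lists of at most 12 genes. Zfp36l2, Alas2, the genes at the 2-fold line, the miRNAs other than Mir144 and Mir680-1, and the host genes were named after their values were seen.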

Additional observations from a re-analysis of the deposited data

Results flagged for a closer look

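Probe sets with no gene symbol were outside all comparisons, and 51 of the 2021 such probe sets were at least 2-fold above input in both IP replicates, while 61 were at least 2-fold below. The largest of these rises was 3.57 and the largest fall -2.74 on the log2 scale, in the replicate nearer input. They drew attention because a signal above the input control appears in data that the gene lists do not cover. What these probe sets measure was not analysed here.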

How the results depend on the processing

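No direction turned among the tested genes of the naming rules, of which the 60th percentile filter kept 238 of 271, leaving out tied genes 244 and the filter without IgG 270. With a 0.01 threshold on the limma adjusted p, 1012 genes rose and 1549 fell. Quantile normalization of the 4 arrays again left 472 genes at least 2-fold lower and 1738 that fell. Size limits of 1.5- and 4-fold gave 1226 and 102 genes higher and 1916 and 42 lower, and no filter raised the genes tested to 23185. Without 1 IP replicate, 653 to 686 genes were higher and 852 to 955 lower; those are values with no test. Of the 201 named genes that passed, 111 lost the call with tied values kept at a spread of 0, 30 at the 0.01 threshold, 19 without a trend in the spread, 17 under quantile normalization, 3 with each array centred and 3 with no filter. Quantile normalization moved the median over tested genes by -0.02 and -0.03 in the replicates and centring by -0.02 and -0.04. The medians of the CCR4-NOT, splicing regulator, G1 regulator and ribosome assembly lists changed sign under quantile normalization, from between -0.13 and 0 to between 0.01 and 0.10, and those of the polyadenylation and polyamine lists under a 60th percentile filter. No paired analysis was possible because the single input array carries no replicate number. The spread of the single input array could not be measured.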

Other observations

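Ubiquitin-conjugating enzymes, the E2 step that carries ubiquitin to its targets, gave more rises than falls, with 11 rises and 6 falls among 29 tested genes and 6 at least 2-fold higher. Ube2d3 read 8.61 in input, 10.74 and 10.77 in the IP and 7.80 in IgG, a rise of 2.14 ± 0.06, and its relative Ube2d1 rose by 2.23 ± 0.12, from 5.51 to 7.68 and 7.79. Both IP arrays were above both other arrays in each gene. Ube2l6, which conjugates the ubiquitin-like Isg15, fell by 0.89 ± 0.06. Under quantile normalization the list gave 13 rises and 3 falls. The CTLH ubiquitin ligase, by contrast, gave 2 rises (Gid4 at 1.03 ± 0.08 and Ypel5 at 0.66 ± 0.06) and 5 falls among 11, with Mkln1 lowest at -1.28 ± 0.10.

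Rab GTPases, switches of vesicle traffic, gave 11 rises and 8 falls among 49 (22.4% and 16.3%, beside 12.1% and 19.2% over all tested genes). They ran from Rab27b, which serves platelet granule release (2.48 ± 0.17), to Rab1b of the early secretory pathway (-2.25 ± 0.11). Sms, spermine synthase, read 6.40 in input, 8.94 and 8.55 in the IP and 4.13 in IgG, a rise of 2.34 ± 0.17, and was the only member of 10 tested polyamine genes that was at least 2-fold higher in both replicates. Npm1, a nucleolar chaperone, rose by 1.76 ± 0.14 and Srsf10, a splicing factor, by 1.75 ± 0.08, while their lists of ribosome assembly factors and splicing regulators had medians near 0. Autophagy genes gave 12 falls (31.6%) and no rise among 38, with Gabarapl2, a protein of the autophagosome membrane, lowest at -2.03 ± 0.16. Their median input level was 7.68. Of 2782 tested genes with levels of 6.37 to 7.68, 912 fell, and of 2782 with levels of 7.68 to 12.6, 1105 fell. Falls were thus about as frequent in the list as at such levels in general. Olfactory receptor genes, which blood cells are not known for, gave 5 rises (5.49%) and no fall among 91 tested, beside 12.1% and 19.2% over all tested genes. With no filter they gave 17 rises and 6 falls among 1065, beside 1655 and 2597 among all 23185 genes. The median of their IgG minus input was 0.87, beside 0 for each IP replicate.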
